A study of Mus musculus with 18 samples.

Results

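The 7 genes described here carry out the first steps of branched-chain amino acid use: Slc7a5, Slc7a8, Slc3a2 and Slc43a1 code for carriers of the cell membrane, Bcat1 and Bcat2 for the 2 aminotransferases, and Slc25a44 for the carrier of the inner mitochondrial membrane. They were taken by name, not by any measured value, from the 22298 genes of the count files, and all 7 were present. The series holds 18 RNA-seq libraries of 3 mouse tissues, eWAT (the usual short name of epididymal white fat), iWAT (inguinal white fat) and liver, with 3 libraries for each tissue and genotype. All mice were C57BL/6 animals aged 12 weeks. All of them carried 2 floxed copies of Bckdha, which codes for a subunit of the branched-chain ketoacid dehydrogenase. The WT group had these alleles alone (Bckdhaf/f), and the KO group also carried RIP-Cre (Bckdhaf/f;RIP-Cre). RIP-Cre is the usual name of a Cre transgene driven by rat insulin promoter sequence. Pancreatic beta cells and some neurons are its known sites, and no such tissue was profiled. No group with RIP-Cre and without the floxed alleles is among the labels, so an effect of the transgene itself cannot be told apart from one of the deletion. The labels do not say that replicates came from separate animals, so the p-values cover only how far these libraries differ, which may be technical. Sex was not given in the sources used here.

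Leucine, isoleucine and valine enter cells mostly by exchange for another amino acid. Slc7a5 (LAT1) and Slc7a8 (LAT2) do the exchange, and each must pair with Slc3a2 (4F2hc, CD98) to reach the cell surface, while Slc43a1 (LAT3) works alone by facilitated diffusion. Inside the cell Bcat1, in the cytosol, or Bcat2, in mitochondria, moves the amino group to alpha-ketoglutarate, which gives glutamate and a branched-chain ketoacid. Slc25a44 was described as the carrier that brings branched-chain amino acids into mitochondria, first in brown fat. The liver is known for low aminotransferase activity towards these amino acids and for a high capacity to oxidise the ketoacids that other tissues release.

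Each library held between 16796147 and 28039742 expected counts. Levels are given as CPM (counts divided by the library's scaled total) scaled over all 18 libraries, and as FPKM, which also divides by transcript length, where different genes are compared. The hepatocyte marker Alb was at 135624 to 174937 CPM in the liver libraries and at 28.4 to 358 CPM in fat. The adipocyte marker Adipoq was at 543 to 2801 CPM in 11 of the 12 fat libraries and at 12.0 CPM in eWAT WT replicate 2. That library goes against its label: the 12 adipocyte markers summed to 310.0 CPM in it, against 11051 or more in every other fat library, and the 8 markers of epididymal epithelium summed to 44727 CPM. The same epididymal list summed to 1098 CPM in eWAT KO replicate 1 and 1255 CPM in eWAT KO replicate 3, against 1.36 to 34.4 CPM in the other eWAT libraries. Most of these KO sums came from 1 marker, Crisp1, at 1074 and 1233 CPM. Another marker of the list, Gpx5, was at 9.06 and 14.0 CPM there. It was at 21.4 CPM in eWAT WT replicate 1 and 30824 CPM in eWAT WT replicate 2. Fold changes, FPKM shares and list counts that involve eWAT were also computed without 3 libraries, eWAT WT replicate 2 and eWAT KO replicates 1 and 3. Correlations between members and interaction tests were not. In iWAT the 7 B cell markers summed to 321 to 1216 CPM in 5 libraries and to 3.54 CPM in WT replicate 2. Bckdha, the targeted gene, was at 149 ± 107 CPM in eWAT WT and 99.0 ± 18.3 CPM in eWAT KO (SD, n = 3 each). In iWAT its WT mean was 135 ± 41.4 CPM and its KO mean 129 ± 45.6 CPM, and in liver the means were 417 ± 38.0 and 390 ± 69.0 CPM. No difference in Bckdha passed the test in these tissues (edgeR's quasi-likelihood test, adjusted p = 0.802, 0.9998 and 0.953 for eWAT, iWAT and liver), and since counts cover the whole gene they do not check a deletion of part of it.

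The comparison of tissues asked where each step is expressed. Both aminotransferases were lower in liver than in fat: Bcat2 was 7.53-fold lower in liver than in iWAT, and Bcat1 had 4 reads in all 6 liver libraries together. The transporter Slc43a1 was also lower in liver, by 3.42-fold against iWAT, while the mitochondrial carrier Slc25a44 had its highest mean CPM in liver on the scale used here and its lowest mean FPKM there (25.6, against 31.9 in eWAT and 43.4 in iWAT). In the fit over all 18 libraries, averaged over genotypes, all 7 members passed the threshold of 0.05 for the adjusted p between liver and eWAT, 6 lower and 1 higher, where 70.5% of all genes tested passed. Between liver and iWAT 3 of 7 members passed, all lower in liver, against 70.1% of all genes. Between iWAT and eWAT 1 of 7 passed, Slc7a8, against 25.3% of all genes. The members' shares are thus not above the background for liver against iWAT or for iWAT against eWAT. Libraries of the compared tissues did not overlap at all for 2 of 7 members between liver and eWAT (42.0% of all genes), for 3 of 7 between liver and iWAT (53.6%) and for 0 of 7 between iWAT and eWAT (4.42%). Fewer cells of a type and less RNA per cell cannot be told apart in such bulk samples.

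The scaling matters for every liver comparison. The median log2 difference of all genes was -0.37 for liver minus eWAT and -0.43 for liver minus iWAT on the scale used here, and -1.76 and -1.77 when only library totals were used. Relative to that median the members moved little between the scales. In liver minus eWAT the distance of Bcat2 from the median was -2.54 on the first scale and -2.46 on the second, and that of Slc25a44 was 1.41 and 1.45.

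**Figure D1:**
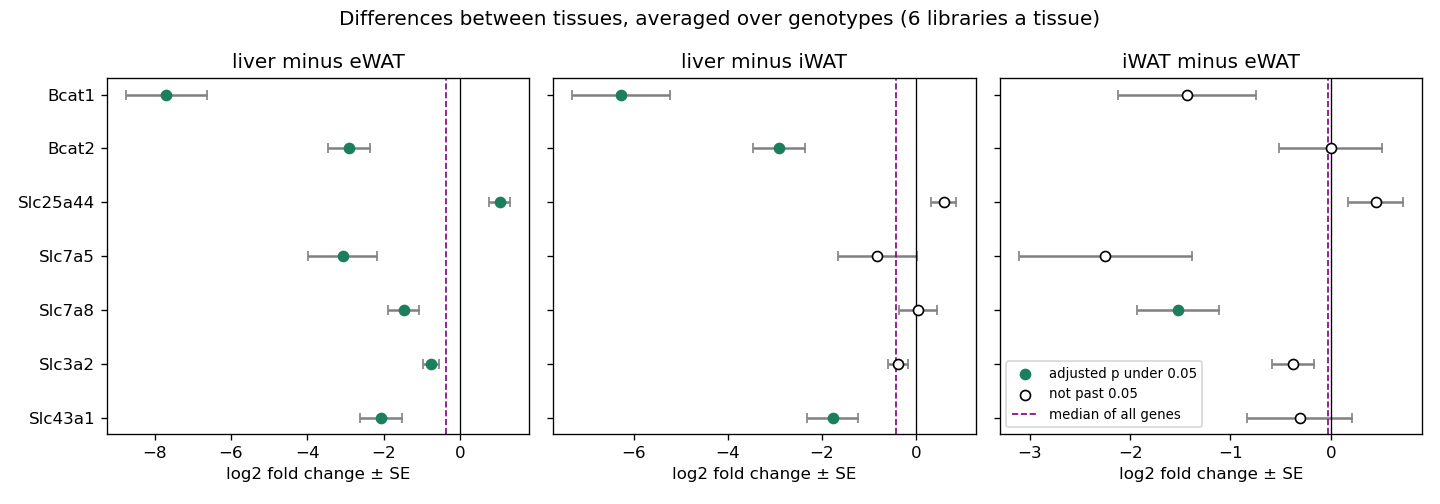
Log2 fold change of the 7 members for liver minus eWAT, liver minus iWAT and iWAT minus eWAT, averaged over genotypes, with bars of 1 standard error (6 libraries a tissue). Filled points passed an adjusted p of 0.05 and the dashed line is the median of all genes; Bcat1 and Bcat2 lie far to the left of it in both liver comparisons and Slc25a44 lies to the right.

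Bcat1, the cytosolic aminotransferase, lies on mm10 chromosome 6 at 144993835 to 145076184, minus strand. It was at 12.0, 12.7 and 0.370 CPM in the 3 eWAT WT libraries and at 33.7, 7.28 and 9.78 CPM in the 3 eWAT KO libraries. Its iWAT levels were 7.38, 4.77 and 2.28 CPM in WT and 3.39, 2.95 and 5.86 CPM in KO. The eWAT libraries enclose the whole iWAT range, with the lowest fat value in eWAT WT replicate 3, where only 9 reads were counted. That library had the highest summed adipocyte markers, 66610 CPM. The sums were 310.0 CPM in eWAT WT replicate 2 and 13835 CPM in eWAT KO replicate 1, the 2 libraries highest in Bcat1. The part of cell content in the Bcat1 spread was not tested. In liver the gene was listed at 0 in 4 of 6 libraries, with 1 read in WT replicate 1 and 3 reads in KO replicate 3. The pooled liver rate was 0.0590 CPM, with an exact Poisson 95% interval of 0.0161 to 0.151 CPM that covers counting error only. The mean of the eWAT libraries was 214 times this rate and the mean of the iWAT libraries 75.2 times, with counting intervals of 83.5 to 785 and 29.4 to 276. The lower Bcat1 level in liver passed the test against both depots (adjusted p = 1.5e-05 and 8.6e-05). The level in iWAT, 4.44 ± 1.94 CPM, did not pass the test against that in eWAT, 12.6 ± 11.2 CPM (SD, n = 6 each; adjusted p = 0.14), and the log2 difference of -1.43 fell to -0.60 without the 3 eWAT libraries.

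Bcat2, the mitochondrial aminotransferase, lies on chromosome 7 at 45570153 to 45589711, plus strand. It was at 181, 17.6 and 464 CPM in eWAT WT and at 58.0, 89.8 and 94.1 CPM in eWAT KO. The iWAT values were 63.3, 212 and 213 CPM in WT and 154, 71.3 and 103 CPM in KO. The liver values were 18.04, 21.4 and 19.1 CPM in WT and 19.6, 14.9 and 13.9 CPM in KO. Every iWAT library lay above every liver library, and among eWAT libraries only the one that goes against its label, WT replicate 2, reached down into the liver range. The log2 difference of Bcat2 was -2.91 ± 0.55 for liver minus eWAT and also -2.91 ± 0.55 for liver minus iWAT (SE, adjusted p = 0.00028 and 0.00026). Between the depots the test did not pass, with a mean of 151 ± 163 CPM in eWAT and 136 ± 67.2 CPM in iWAT (SD, n = 6 each; adjusted p = 0.9998). The log2 difference of iWAT minus eWAT moved to -0.36 without the 3 eWAT libraries (adjusted p = 0.60). The spread within a depot was wide. Among the 12 fat libraries the lowest and highest Bcat2 values belonged to eWAT WT replicates 2 and 3, which also had the lowest and highest summed adipocyte markers, 310.0 and 66610 CPM. The 2 iWAT libraries lowest in Bcat2, WT replicate 1 and KO replicate 2, had adipocyte sums of 11051 and 14171 CPM, against 27221 and 35096 CPM in the 2 highest, WT replicates 3 and 2. The part of adipocyte content in the Bcat2 spread was not tested.

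**Figure D2:**
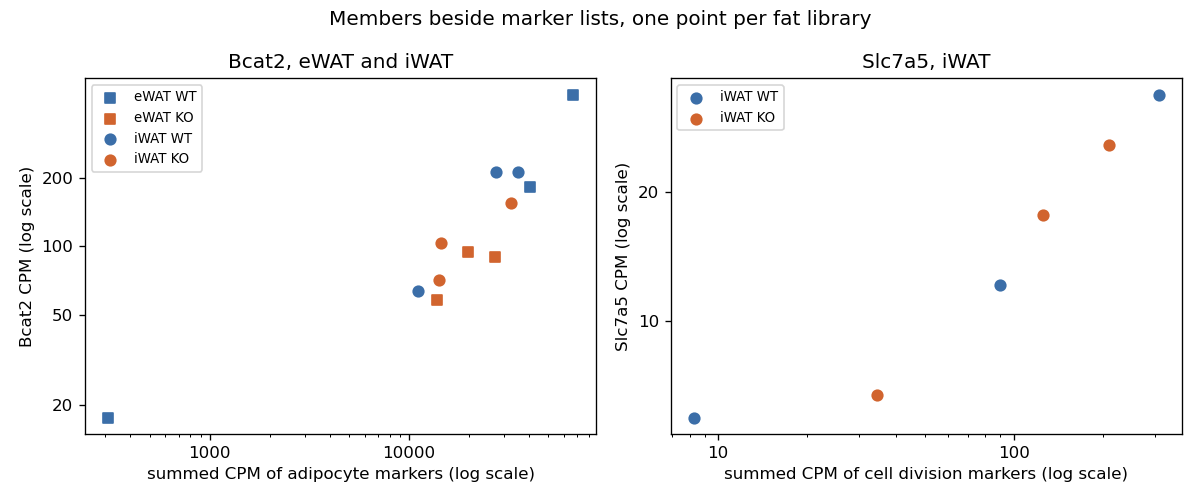
Left, Bcat2 CPM against the summed CPM of 12 adipocyte markers in the 12 fat libraries; right, Slc7a5 CPM against the summed CPM of 8 cell division markers in the 6 iWAT libraries (log axes, 1 point per library, colour for genotype and shape for depot). The eWAT point at 310.0 CPM of adipocyte markers also has the lowest Bcat2, and the iWAT libraries keep 1 order on both axes of the right panel.

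The sequences before the 2 aminotransferase genes are shown because these genes carry the contrast between fat and liver. They are RefSeq windows on build GRCm38.p6, from 250 bases before to 50 bases after an annotated start, and 5 of the 7 members have an entry in that table. Only the part before the start that lies outside annotated coding and untranslated parts of exons is printed. Capitals mark matches on either strand to 5 short motifs: CACGTG (E-box), TGATGNAA (core of the amino acid response element), GGGCGG (GC box), CCAAT and TATAAA. Bcat1 has 2 annotated starts, at 145076157 (window part chr6:145076185-145076407, minus strand) and 145048812 (chr6:145048813-145049062, minus strand). Bcat2 is shown before its start at 45570153 (chr7:45569903-45570152, plus strand). A second annotated Bcat2 start, at 45571279, had 0 bases left to print and is not shown.
Bcat1, upstream start: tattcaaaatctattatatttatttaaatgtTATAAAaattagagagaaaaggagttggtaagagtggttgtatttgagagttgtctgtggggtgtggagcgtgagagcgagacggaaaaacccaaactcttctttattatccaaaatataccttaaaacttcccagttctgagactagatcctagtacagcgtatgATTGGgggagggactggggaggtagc
Bcat1, downstream start: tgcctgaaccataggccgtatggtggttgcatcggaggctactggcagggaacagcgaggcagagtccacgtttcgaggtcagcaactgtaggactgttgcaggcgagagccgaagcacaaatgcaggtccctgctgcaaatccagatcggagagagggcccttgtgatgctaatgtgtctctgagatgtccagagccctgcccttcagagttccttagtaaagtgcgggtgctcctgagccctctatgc
Bcat2: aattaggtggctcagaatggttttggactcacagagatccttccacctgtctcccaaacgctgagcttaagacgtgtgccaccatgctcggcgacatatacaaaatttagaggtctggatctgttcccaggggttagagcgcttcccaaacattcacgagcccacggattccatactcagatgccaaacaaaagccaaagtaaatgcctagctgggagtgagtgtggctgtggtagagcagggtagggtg
The upstream Bcat1 window held 1 TATAAA and 1 CCAAT (read here as ATTGG on the printed strand), starting at -219 and -53 from the start. The other Bcat1 and Bcat2 windows held none of the 5 motifs. Among the 32851 promoter windows of the same length, 7.15% held CACGTG, 3.97% TGATGNAA, 35.7% GGGCGG, 37.4% CCAAT and 13.6% TATAAA. A match is a description of letters and not of a binding site.

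Bcat2 has several annotated transcripts, and the deposited values carry a trace of which were counted. Dividing the expected count by the FPKM and the library total gives the mean transcript length that the authors' estimate used. For Slc7a5 and Slc7a8 it stayed close to that of 1 annotated transcript in every tissue, at 3498 to 3527 bases (annotated, 3517 bases) and 4074 to 4096 bases (annotated, 4084 bases). For Bcat2 it was 1765 to 1771 bases in iWAT and 1766 to 1786 bases in eWAT, near the 1772 bases of the annotated protein-coding transcript that begins at 45570153. Liver lengths were 1973, 1975 and 2011 bases in WT and 1878, 2042 and 1886 bases in KO, between that length and the 2081 bases of another protein-coding Bcat2 transcript, which begins at 45570996. A Bcat2 transcript with a retained intron, of 1905 bases, is annotated too and lies within the liver range. No liver library overlapped any fat library. The mean of 1961 ± 66.5 bases in liver differed from 1773 ± 7.67 bases in eWAT and 1768 ± 2.23 bases in iWAT (SD, n = 6 each; exact two-sided permutation test, p = 0.0022 for each, the smallest that 6 against 6 can give, and 0.019 after adjustment over 18 such comparisons). Slc43a1 was also longer in liver, at 2344 ± 165 bases against 2085 ± 143 in eWAT and 2115 ± 112 in iWAT, but this did not pass (exact permutation test, adjusted p = 0.12 for both). This measure was chosen after its values were seen. It rests on 150 to 218 Bcat2 reads per liver library, no error of the transcript estimate was used here, and which transcripts were present was not tested. With the 3 eWAT libraries left out, 3 remained and the eWAT comparison no longer passed (exact permutation test, adjusted p = 0.11) with a difference of 194 bases.

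**Figure D3:**
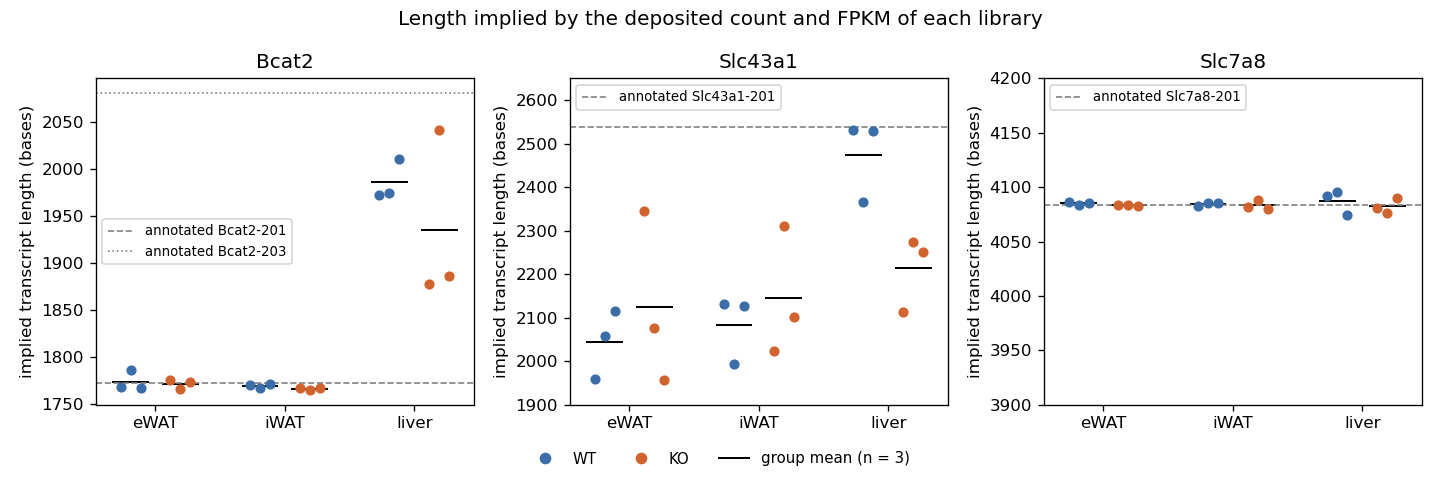
Transcript length implied by the deposited count and FPKM in each library for Bcat2, Slc43a1 and Slc7a8 (points are libraries, bars are group means of 3, lines are lengths of annotated transcripts; the 3 vertical axes do not start at 0 and differ). The 6 liver values of Bcat2 lie between 1878 and 2042 bases, above all 12 fat values, while Slc7a8 stays near 4084 bases.

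Slc25a44, the mitochondrial carrier, lies on chromosome 3 at 88410498 to 88425139, minus strand. It was at 135, 40.8 and 126 CPM in eWAT WT and 50.7, 67.1 and 84.7 CPM in eWAT KO. The iWAT values were 72.5, 142 and 113 CPM in WT and 138, 83.8 and 127 CPM in KO. Its liver values were 190.1, 137 and 197 CPM in WT and 194, 130.0 and 168 CPM in KO, with 2 of 6 libraries inside the range of fat. The mean rose from 84.1 ± 39.2 CPM in eWAT to 169 ± 29.7 CPM in liver (SD, n = 6 each), a log2 difference of 1.03 ± 0.27 (SE, adjusted p = 0.0038). In WT libraries alone the difference of 0.79 did not pass (adjusted p = 0.095). Against iWAT, at 113 ± 28.8 CPM, the difference of 0.59 ± 0.27 did not pass either (adjusted p = 0.067), and it passed at 0.62 without the 3 eWAT libraries (adjusted p = 0.011). These directions depend on scaling. With library totals alone the log2 difference was -0.31 against eWAT (adjusted p = 0.26) and -0.76 against iWAT, where Slc25a44 then passed as lower in liver (adjusted p = 0.012). On log2(FPKM + 1) the values were -0.25 (adjusted p = 0.36) and -0.73, the latter again a call in the opposite direction (adjusted p = 0.014). In each of these settings Slc25a44 stayed above the median of all genes.

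Slc3a2, the heavy chain shared by Slc7a5 and Slc7a8, lies on chromosome 19 at 8706882 to 8723369, minus strand. It was at 99.8, 327 and 177 CPM in eWAT WT and at 109, 115 and 114 CPM in eWAT KO. Across iWAT the values were 106, 135 and 126 CPM in WT and 120, 95.3 and 115 CPM in KO. Those of liver were 97.5, 93.8 and 93.5 CPM in WT and 91.3, 83.3 and 78.5 CPM in KO, all below every eWAT library. Its means were 157 ± 87.7 CPM in eWAT, 116 ± 14.3 CPM in iWAT and 89.6 ± 7.22 CPM in liver (SD, n = 6 each). It fell by 0.76 ± 0.21 on the log2 scale from eWAT to liver (SE, adjusted p = 0.0051), and by 0.47 without the 3 eWAT libraries (adjusted p = 0.044). The liver minus iWAT difference of -0.38 did not pass on this scale (adjusted p = 0.12). It passed at -1.74 with library totals alone (adjusted p = 8.8e-06) and at -1.71 on log2(FPKM + 1) (adjusted p = 3.7e-06).

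Slc7a5 (LAT1) lies on chromosome 8 at 121881150 to 121907694, minus strand. It was at 17.8, 736 and 6.37 CPM in eWAT WT and at 44.3, 11.8 and 20.1 CPM in eWAT KO. Its 17579 reads in eWAT WT replicate 2, the library rich in epididymal transcripts, stand far above every other library; the next highest, at 44.3 CPM, was eWAT KO replicate 1. The iWAT libraries had 33.7, 5.94 and 12.1 CPM in WT and 6.73, 17.7 and 25.7 CPM in KO. The liver libraries had 11.9, 5.52 and 11.3 CPM in WT and 10.8, 7.97 and 9.81 CPM in KO, within or just below the range of iWAT. The fall of 3.08 ± 0.90 on the log2 scale from eWAT to liver (SE, adjusted p = 0.0071) ended as a call without eWAT WT replicate 2, at -0.81 (adjusted p = 0.14). Neither iWAT minus eWAT (-2.25, adjusted p = 0.069; 0.49 without the 3 eWAT libraries) nor liver minus iWAT (-0.83, adjusted p = 0.40) passed. Within iWAT the order of the 6 libraries by Slc7a5 was the order by the sum of 8 cell division markers. From the library highest in Slc7a5 to the lowest, that sum was 309, 210.2, 125, 89.4, 34.5 and 8.28 CPM. The 7 B cell markers summed to 1216, 1020 and 1108 CPM in the first 3 of these libraries, 510.2 and 321 in the next 2 and 3.54 in the last, and all 7 had reads in both iWAT groups. The part of these cells in the Slc7a5 level was not tested.

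Slc7a8 (LAT2) lies on chromosome 14 at 54722209 to 54781946, minus strand. It was at 10.8, 102 and 35.4 CPM in eWAT WT and at 27.9, 61.9 and 22.8 CPM in eWAT KO. In iWAT it was at 11.6, 24.9 and 23.1 CPM in WT and 11.9, 9.81 and 12.2 CPM in KO. In liver it was at 16.0, 15.3 and 14.7 CPM in WT and 15.1, 14.2 and 17.8 CPM in KO, a narrow band inside the iWAT range. Slc7a8 was the 1 member called between the depots, although their libraries overlapped: it fell by 1.53 ± 0.41 on the log2 scale from eWAT to iWAT (SE, adjusted p = 0.016), and by 1.35 without the 3 eWAT libraries (adjusted p = 0.037). On log2(FPKM + 1) and log2(FPKM + 0.1) the differences of -1.11 and -1.22 did not pass (adjusted p = 0.056 and 0.054). Within WT libraries alone (-1.32, adjusted p = 0.15) and KO libraries alone (-1.73, adjusted p = 0.089) the depots did not pass. It fell by 1.48 ± 0.41 from eWAT to liver (SE, adjusted p = 0.0051). Liver minus iWAT was 0.048 (adjusted p = 0.93) and turned to -1.30 with library totals alone, which passed as lower in liver (adjusted p = 0.0102).

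Slc43a1 (LAT3) lies on chromosome 2 at 84838850 to 84863594, plus strand. It was at 36.5, 2.72 and 75.5 CPM in eWAT WT and at 12.5, 27.7 and 19.3 CPM in eWAT KO. In iWAT it was at 11.7, 41.8 and 35.1 CPM in WT and 23.8, 12.2 and 14.1 CPM in KO. In liver it was at 5.13, 7.47 and 7.86 CPM in WT and 7.98, 4.62 and 6.02 CPM in KO. All liver libraries lay below all iWAT libraries, and the single fat library under them was eWAT WT replicate 2. Slc43a1 fell by 2.08 ± 0.55 from eWAT to liver and by 1.77 ± 0.54 from iWAT to liver on the log2 scale (SE, adjusted p = 0.0037 and 0.0093). In KO libraries alone neither difference passed (-1.68, adjusted p = 0.074, and -1.43, adjusted p = 0.12). The depots did not differ beyond their spread (29.0 ± 25.6 CPM in eWAT, 23.1 ± 12.8 CPM in iWAT, SD, n = 6 each; adjusted p = 0.71), with a log2 difference of -0.31 that was -0.84 without the 3 eWAT libraries (adjusted p = 0.19).

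**Figure D4:**
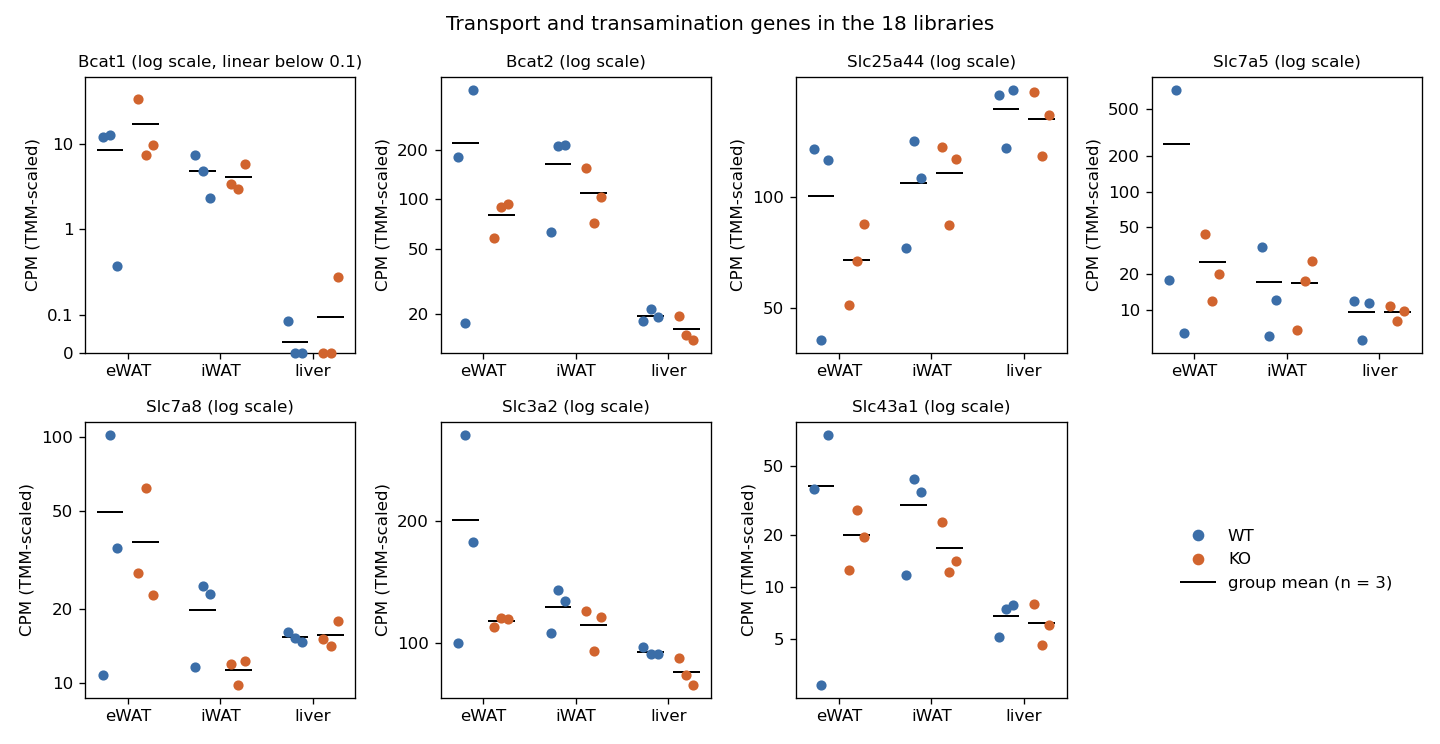
CPM of the 7 members in each of the 18 libraries by tissue and genotype (points are libraries, bars are means of 3; log axes, that of Bcat1 linear below 0.1). The isolated eWAT WT point at 736 CPM of Slc7a5 is replicate 2, and the 6 liver points of Bcat1 are at or near 0.

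Compared per length, the mitochondrial enzyme and the heavy chain led in fat. In iWAT the mean FPKM was 103 ± 45.8 for Bcat2, 92.1 ± 7.47 for Slc3a2, 43.4 ± 9.996 for Slc25a44, 14.8 ± 7.69 for Slc43a1, 6.71 ± 4.44 for Slc7a5, 5.11 ± 1.81 for Slc7a8 and 2.40 ± 1.06 for Bcat1 (SD, n = 6). Bcat2 overlapped there with Slc3a2 and, at its lowest (49.65 FPKM), with Slc25a44 (up to 54.89 FPKM). Slc7a5 overlapped with Slc43a1, Slc7a8 and Bcat1, and Bcat1 also with Slc7a8. Slc43a1 (7.61 FPKM or above) and Slc7a8 (7.48 FPKM or below) did not overlap. In eWAT the medians of 6 libraries ran in nearly the same order, from 103 FPKM for Slc3a2 and 76.9 for Bcat2 to 6.04 for Bcat1. In liver Slc3a2 (27.3 ± 1.45 FPKM) and Slc25a44 (25.6 ± 5.28 FPKM) overlapped at the top, and both lay above Bcat2 at 4.80 ± 0.603 FPKM in every library (SD, n = 6). Slc7a8, Slc43a1 and Slc7a5 followed at 2.02, 1.48 and 1.46 FPKM, with Bcat1 at 0.033 FPKM. Per length, 96.2% of the 18343 genes with reads in iWAT had a lower mean than Bcat2, and 64.7% of 16274 genes in liver. For Slc25a44 these shares were 90.2% in iWAT and 88.1% in liver.

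The share of Bcat1 in the summed FPKM of both aminotransferases was low in nearly every library. It was 12.6 ± 13.6% in eWAT, 3.01 ± 2.38% in iWAT and 0.725 ± 1.18% in liver (SD, n = 6 each). The 2 libraries with the highest share were eWAT WT replicate 2 at 33.0% and eWAT KO replicate 1 at 26.5%, both among the 3 with raised epididymal marker sums. None of the 6 differences in this share between tissues or genotypes passed (exact two-sided permutation tests, adjusted over 12 share comparisons; liver minus eWAT adjusted p = 0.078). The liver minus eWAT difference of -11.9 points was -2.59 points, and that of iWAT minus eWAT -0.30 in place of -9.62 points, without the 3 eWAT libraries. Slc7a5 made up 51.0 ± 28.6% of the summed FPKM of Slc7a5 and Slc7a8 in eWAT, 52.5 ± 22.3% in iWAT and 41.2 ± 6.55% in liver (SD, n = 6 each). Its range was 17.3% to 89.3% in eWAT and 29.8% to 47.0% in liver, and none of its 6 differences passed (exact permutation tests, adjusted p = 0.77 or above). With 3 against 3 libraries the smallest p such a test allows is 0.10.

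**Figure D5:**
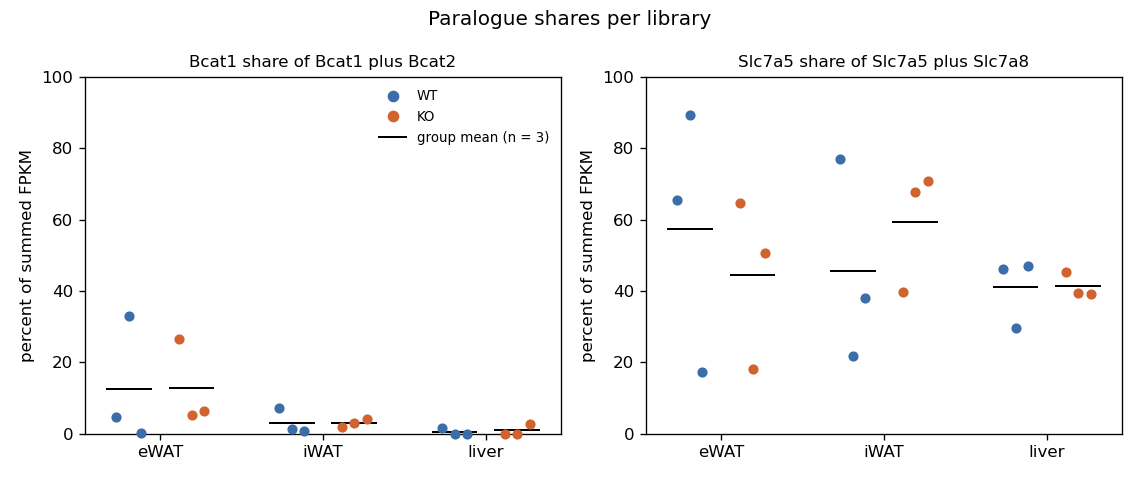
Share of Bcat1 in the summed FPKM of Bcat1 and Bcat2 (left) and of Slc7a5 in that of Slc7a5 and Slc7a8 (right) in each library, in percent, by tissue and genotype (bars are means of 3). The 2 highest Bcat1 shares, 33.0% and 26.5%, are eWAT libraries, and the Slc7a5 share ranges widely in both depots.

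The comparison of KO with WT asked whether the first steps of branched-chain amino acid use were altered in fat or liver. No member passed the test in any tissue. In eWAT 0 of 7 members were called, where 0% of the 14657 genes tested were, in iWAT 0 of 7, where 0% of 14226 were, and in liver 0 of the 6 tested, where 0.0504% of 11915, or 6 genes, were. At an unadjusted p under 0.05 there was no member in eWAT (843 of all genes), 1 in iWAT (593 of all genes) and none in liver (720 of all genes), and DESeq2 and limma called no member either. In eWAT the adjusted p of the members ran from 0.71 to 0.89, in iWAT all were 0.9998, and in liver they ran from 0.85 to 0.996. Bcat1 had too few reads in liver to be tested.

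The eWAT differences were the widest, and 3 of them turned direction without a single WT library. The 6 members other than Bcat1 had negative differences, with a median over all 7 of -0.87 against -0.022 for all genes. Slc7a5 differed most, at -3.39 ± 1.82 (SE), and this turned to 1.11 without WT replicate 2. Slc7a8 turned from -0.43 to 0.70 without the same library, and Slc43a1 from -0.95 to 0.054 without WT replicate 3. Leaving out the 3 eWAT libraries left 2 WT libraries and 1 KO library assumed to vary like them. The differences were then 1.41 for Slc7a8, 0.26 for Bcat1, -0.025 for Slc7a5 and -0.27 for Slc3a2. They were -0.96 for Slc25a44, -1.02 for Slc43a1 and -1.85 for Bcat2, the last larger than its -1.46 with all libraries. The Bcat2 mean was 221 ± 226 CPM in WT against 80.6 ± 19.7 CPM in KO (SD, n = 3 each), with the WT libraries on both sides of all KO libraries. Summed adipocyte markers had a similar shape, 310.0 to 66610 CPM in WT and 13835 to 27018 CPM in KO, and their part in these differences was not tested. Groups did not overlap for 0 of 7 members, against 16.0% of all genes in eWAT.

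In iWAT the member with the lowest p was Slc7a8, with a mean of 19.9 ± 7.18 CPM for WT against 11.3 ± 1.31 CPM for KO (SD, n = 3 each), a log2 difference of -0.80 ± 0.32 (SE, unadjusted p = 0.048, edgeR adjusted p = 0.9998). WT replicate 1, at 11.6 CPM, lay inside the KO range. The 12 macrophage markers summed to 2813 to 3070 CPM in iWAT WT and 1370 to 2045 CPM in iWAT KO, and the 7 fibroblast or adipose progenitor markers to 2128 to 5702 and 1263 to 1545 CPM. All of these markers had reads in both groups, and their part in the Slc7a8 difference was not tested. Bcat2 was at 163 ± 86.1 CPM and 109.5 ± 41.96 CPM, Slc43a1 at 29.5 ± 15.8 CPM and 16.7 ± 6.199 CPM, and Slc25a44 at 109 ± 35.01 CPM and 116 ± 28.6 CPM in WT and KO. Their values overlapped between genotypes for all 7 members, where 9.34% of all genes had groups apart. The median difference of the members was -0.23, against 0.012 for all genes.

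In liver the spread between libraries was smaller. The Bcat2 mean was 19.5 ± 1.74 CPM for WT against 16.1 ± 3.03 CPM for KO, with Slc25a44 at 175 ± 32.9 and 164 ± 32.2, and Slc7a8 at 15.3 ± 0.669 and 15.7 ± 1.88 (SD, n = 3 each). Slc3a2 was the 1 of 7 members whose groups did not overlap (13.1% of all genes), with 94.9 ± 2.21 CPM for WT against 84.4 ± 6.49 CPM for KO (SD, n = 3 each), a log2 difference of -0.15 ± 0.15 (SE, edgeR adjusted p = 0.89). That share of members is near the background. The median difference of the 6 tested members was -0.093, against -0.0021 for all genes.

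Whether the genotype effect differed between tissues was tested with interaction terms over the 18 libraries. Of all genes, 0% passed in iWAT minus eWAT, 0% in liver minus eWAT and 0% in liver minus iWAT, and so did 0 of 7 members in each. At an unadjusted p under 0.05 there were 914, 1000 and 413 genes and no member, and DESeq2 called 46, 46 and 12 genes and no member. The lowest p of a member was that of Slc7a5 between iWAT and eWAT (3.27 ± 1.69 SE, unadjusted p = 0.072, edgeR adjusted p = 0.86), where eWAT WT replicate 2 sets the eWAT effect.

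Members that work together were compared across the 6 libraries of each tissue. These relations were not computed without the 3 eWAT libraries with raised epididymal marker sums. Bcat2 and Slc25a44, which act on the same amino acids in mitochondria, varied together in eWAT (Pearson r = 0.92, exact permutation p = 0.0069, adjusted 0.042 over 6 relations; Spearman rho = 0.94, p = 0.017, adjusted 0.10), and r was 0.98 without the 2 libraries farthest from the Bcat2 median. In iWAT r was 0.82 (exact permutation p = 0.053, adjusted 0.16; rho = 0.66, p = 0.17, adjusted 0.35) and fell to -0.067 without its 2 farthest libraries, so it rests on those. In liver r was 0.21 (exact permutation p = 0.67, adjusted 0.80; rho = 0.26, p = 0.66, adjusted 0.79) and turned to -0.85 without its 2 farthest. For the 2 chains of the heterodimer, Slc7a5 and Slc3a2, no relation passed. Their r was 0.71 in eWAT (exact permutation p = 0.16, adjusted 0.23; rho = 0.029, p = 1, adjusted 1), -0.67 in iWAT (p = 0.15, adjusted 0.23; rho = -0.77, p = 0.10, adjusted 0.31) and 0.10 in liver (p = 0.88, adjusted 0.88; rho = 0.37, p = 0.50, adjusted 0.75). The eWAT value turned to -0.75 without WT replicate 2. Without their 2 farthest libraries the 3 values were -0.17, -0.40 and 0.98. The summed adipocyte markers ranged from 310.0 to 66610 CPM over the eWAT libraries and from 11051 to 35096 CPM over those of iWAT, and their part in these relations was not tested.

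The genes whose levels ran most like each member across the 18 libraries, after the mean of each tissue was subtracted, are given as a description. For Bcat2 they were Pex16, a factor of peroxisome assembly (r = 0.98), Fmo1, a flavin monooxygenase (0.98), and Bscl2, the seipin gene of lipid droplets (0.98); for Slc25a44 they included Trap1 (0.93) and Mcat (0.93). For Slc43a1 they were Sephs2, a selenophosphate synthetase (0.98), Gsto1 (0.98) and Sfxn1, a mitochondrial serine carrier (0.98). Slc7a5 ran with Rnf157 (0.97), Clu (0.97) and Scrib (0.97), Slc3a2 with Pex11g (0.96), Araf (0.94) and Pemt (0.93), Slc7a8 with Lpin3 (0.82), Pla2g7 (0.82) and Ctsl (0.78), and Bcat1 with Col16a1 (0.87), Dnajc18 (0.83) and Aph1b (0.83). Without eWAT WT replicate 2 the leading genes were Hsd17b10, an enzyme of isoleucine breakdown, for Bcat2 (0.98), Dgat2 for Slc25a44 (0.93) and Tusc3 for Bcat1 (0.92). They were F7 for Slc7a8 (0.83), and still Sephs2 for Slc43a1 (0.95), Pex11g for Slc3a2 (0.89) and Rnf157 for Slc7a5 (0.94). After Rnf157, Aurka (0.94) and Serinc5 (0.93) came next for Slc7a5.

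The neighbouring steps of the pathway were read from 7 gene lists. Between liver and eWAT 70.5% of all genes passed, 4426 of 15717 higher and 6652 lower in liver, and the list counts stand beside that background. Of 15 partners of Slc3a2 and other carriers of large neutral amino acids, 13 were tested between liver and eWAT, with 2 higher and 9 lower in liver. Those lowest in liver included 2 light chains that also pair with Slc3a2: Slc7a6 (0.874 ± 0.629 CPM in liver, 20.2 ± 6.82 CPM in eWAT) and Slc7a10 (0.439 ± 0.108 and 115 ± 92.8 CPM), with Slc6a17 at 0.0339 and 9.13 CPM. Slc3a1, the other heavy chain of the family, ran the opposite way, at 134 ± 23.7 CPM in liver and 0.300 ± 0.140 CPM in eWAT. Of 11 carriers of glutamine and other exchange substrates 7 were higher and 3 lower in liver, with Slc38a4 at 1079 ± 88.9 against 5.92 ± 3.75 CPM and Slc1a5, which supplies glutamine for exchange, at 7.70 ± 2.04 against 768 ± 367 CPM (SD, n = 6 each; edgeR adjusted p of all 6 named genes 2.5e-05 or below).

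Downstream of transamination, the calls between liver and eWAT depended on the scaling. Their main direction turned for the dehydrogenase complex and the enzymes after it, but not for nitrogen hand-off. On the scale used so far, among 11 tested enzymes and carriers that hand on glutamate and nitrogen, 9 were higher and 1 lower in liver, led by Gls2 (liver glutaminase, 525.6 ± 106 against 0.568 ± 0.294 CPM). Of 6 genes of the dehydrogenase complex 3 were higher, Bckdha, Bckdhb and its phosphatase Ppm1k, and 1 lower, its kinase Bckdk (16.5 ± 2.30 against 59.1 ± 19.2 CPM). Of 17 enzymes after the dehydrogenase 13 were higher and 1 lower in liver. The median difference was 1.06 for the last list, against -2.08 for the 7 members and -0.37 for all genes. Leucine sensing genes were mixed, with 5 higher and 8 lower of 18, and so were amino acid response genes, with 7 higher and 10 lower of 19. With library totals alone 84.7% of all genes passed between liver and eWAT, 1300 higher and 12019 lower in liver. Nitrogen hand-off then had 6 higher and 2 lower, the dehydrogenase complex 0 and 3, and enzymes after it 3 and 5, with a median of -0.27 against -1.76 for all genes. Large neutral carriers had 1 higher and 11 lower, exchange substrate carriers 3 and 6, leucine sensing 1 and 16 and amino acid response 5 and 13. Without the 3 eWAT libraries 59.6% of all genes passed. The counts higher and lower in liver were then 2 and 5 for large neutral carriers, 6 and 3 for exchange substrate carriers, 9 and 1 for nitrogen hand-off, 2 and 1 for the complex, 9 and 2 for enzymes after it, 5 and 6 for leucine sensing and 7 and 11 for amino acid response.

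Between liver and iWAT 70.1% of all genes passed, 4390 higher and 6634 lower in liver. Large neutral carriers had 2 higher and 8 lower of 13 tested, exchange substrate carriers 6 and 3 of 11, nitrogen hand-off 8 and 1 of 11, the dehydrogenase complex 2 and 1 of 6, enzymes after it 12 and 0 of 17, leucine sensing 6 and 6 of 18 and amino acid response 7 and 9 of 19. With library totals alone the complex had 0 higher and 4 lower, enzymes after it 4 and 4, and leucine sensing 1 and 17. Between the depots 25.3% of all genes passed, 2067 higher and 1910 lower in iWAT. The lists had 2 higher and 4 lower in iWAT among large neutral carriers, including Slc43a2, a relative of Slc43a1 (52.3 ± 14.8 CPM in iWAT, 26.1 ± 7.87 CPM in eWAT; edgeR adjusted p = 0.018), 2 and 3 among exchange substrate carriers, 0 and 2 after the dehydrogenase, 1 and 0 in leucine sensing, 0 and 1 in amino acid response and none in the other 2 lists. Without the 3 eWAT libraries 5.05% of all genes passed and no gene of the carrier lists or of leucine sensing did, with 0 higher and 1 lower each for nitrogen hand-off, enzymes after the dehydrogenase and amino acid response. Between genotypes no gene of the 7 lists passed in any tissue, nor in eWAT without the 3 libraries. The genes of lowest p were Gdf15 in eWAT (0.295 ± 0.111 CPM for WT, 1.85 ± 0.413 CPM for KO; edgeR adjusted p = 0.71), Phgdh in iWAT (73.6 ± 13.2 and 131.6 ± 34.9 CPM; 0.9998) and Asns in liver (30.3 ± 8.30 and 6.45 ± 4.99 CPM; 0.48).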

How the data were processed

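Per the labels' protocols, RNA was extracted with Trizol, enriched for polyadenylated RNA and sequenced on an Illumina NovaSeq instrument. Build mm10 was used with RSEM, HISAT2, StringTie 1.3.1, Bowtie2 2.2.8 and fastp 0.18.0, and edgeR and DESeq2 are listed too, per the submitters' processing notes. For each library the authors deposited 1 file of expected counts and 1 of FPKM values per gene, which rest on a transcript length; 8.57% of counts lay 0.01 or more from a whole number. Counting by strand is not stated, and reads of Bcat1 and Bcat2 cannot be told apart from those of the antisense genes Gm26666 and 0610005C13Rik, which overlap their exons. Of 22298 identifiers 22255 matched a symbol in GENCODE M21, and coordinates are from that annotation.

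Expected counts were rounded and tested with edgeR 4.0.16 in R 4.3.3 (glmQLFit robust, glmQLFTest; TMM; filterByExpr with a minimum count of 10 and total of 15; Benjamini-Hochberg over all genes tested). Genotypes were compared within the 6 libraries of a tissue, tissues and interactions in 1 fit of 18. A standard error is the absolute log2 fold change over the square root of F. Printed CPM are scaled over 18 libraries. Shares and correlations used exact permutation (scipy 1.17.1). The fits were tested on simulated data. All 7 members and Bckdha are named throughout; from each list, up to 4 called genes in order of p, or the 1 of lowest p; for likeness, the 3 highest r among genes whose mean log2 CPM reached 1. Members, 7 pathway lists and 16 marker lists were chosen with earlier results of these data known. One listed gene was not analysed here. Some genes that the naming rule selects are not reported here. Alternatives used DESeq2 1.42.0, limma 3.58.1, other scalings, no filter and left-out libraries.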

Additional observations from a re-analysis of the deposited data

Results flagged for a closer look

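In each tissue the highest or lowest of the 6 libraries was compared with its nearest neighbour; where that gap exceeded 0.625 of the whole range, Dixon's 95% limit for 6 values, the library was set apart. Of 21 groups tested 5 had such a library. The limit gives about 1 in 20 only for independent, normally distributed values. These CPM were not on a log scale, mixed both genotypes and shared libraries between groups. The 5 of 21 therefore cannot be set against that rate. Of these 5, 2 were eWAT WT replicate 2: Slc7a5 at 736 CPM, with 44.3 CPM next, and Slc3a2 at 327 CPM, with 177 CPM next. In eWAT WT replicate 3, Bcat2 was at 464 CPM, with 181 CPM next. In eWAT KO replicate 1, Bcat1 was at 33.7 CPM, with 12.7 CPM next. In liver KO replicate 3, Bcat1 was at 0.278 CPM, which is 3 reads, with 0.0827 CPM next.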

How the results depend on the processing

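The list counts under library totals and without the 3 eWAT libraries were chosen after seeing the data. Depth limits Bcat1 in liver, and the eWAT spread limits every eWAT comparison. No alternative called a member between genotypes (266 values, each of 1 member in 1 alternative fit, lowest adjusted p = 0.24). The calls of Bcat1 and Bcat2 in liver against both depots held in all 28 alternatives each.

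Genes called for KO minus WT were 126 in eWAT, 67 in iWAT and 65 in liver with DESeq2, 46, 46 and 12 for the 3 interactions. The fit of all 18 libraries called 4 in eWAT and 0 in liver; no filter called 11 in liver. Without the 3 eWAT libraries, 25 genes were called in eWAT and 811 (of 3977) for iWAT minus eWAT, where WT libraries alone gave 1437 and KO libraries alone 725. Members called for iWAT minus eWAT were 0 with WT alone, KO alone and both FPKM fits; for liver minus eWAT 3 with KO alone (Bcat1, Bcat2 and Slc25a44); for liver minus iWAT 6 with both FPKM fits and 7 with library totals alone.

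Directions that turned, none of them called in either fit between genotypes, were as follows on the log2 scale, first for log2(FPKM + 1) and then for log2(FPKM + 0.1). In eWAT, KO minus WT was 0.25 and 0.31 for Slc7a8, 0.078 and 0.19 for Slc43a1. In iWAT it was 0.19 and 0.31 for Bcat1, 0.17 and 0.23 for Slc7a5. In liver it was 0.029 and 0.031 for Slc25a44, 0.092 and 0.14 for Slc43a1. Slc25a44 turned to -0.25 and -0.26 for liver minus eWAT and to -0.73 and -0.75 for liver minus iWAT, Slc7a8 to -0.97 and -1.24 for liver minus iWAT. With library totals alone these 3 were -0.31, -0.76 and -1.30. Bcat2 in iWAT minus eWAT (-0.00055) was 0.33, 0.35, 0.046 with library totals, 0.0060 without a filter, 0.44 in KO alone; Slc43a1 was 0.036 with log2(FPKM + 0.1). Slc7a8 in liver minus iWAT was -0.37 in WT alone. Slc7a5 in liver, KO minus WT, was -0.010 in the fit of 18. Without the 3 eWAT libraries Slc7a8 was 1.41 for KO minus WT in eWAT, Slc7a5 0.49 for iWAT minus eWAT, and its share 7.50 points for liver minus eWAT. On expected counts the Bcat1 share passed, at -16.6 points for liver minus eWAT and -3.80 for liver minus iWAT (exact permutation test, adjusted p = 0.039 each).

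Correlations of same-numbered libraries ran from -0.53 to 0.15 between genotypes and from -0.23 to 0.29 between tissues. Not every pair exceeded 0.1, so the numbers were not taken to pair samples. With the replicate number as a block, 39 genes were called in liver, Slc7a5 turned to 0.24 for KO minus WT in iWAT and Bcat2 to 0.079 for iWAT minus eWAT, and the call of Slc7a5 for liver minus eWAT was lost (-2.24, adjusted p = 0.13).

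Leaving out 1 library at a time gave these ranges. KO minus WT in eWAT: Slc7a5 -4.00 to 1.11, Slc7a8 -1.02 to 0.70, Slc43a1 -1.50 to 0.054. KO minus WT in iWAT: Bcat1 -0.55 to 0.20, Slc25a44 -0.12 to 0.35, Slc7a5 -0.48 to 0.86. KO minus WT in liver: 0 to 25 genes, Slc7a5 -0.25 to 0.20, Slc25a44 -0.20 to 0.074, Slc43a1 -0.31 to 0.060, Slc7a8 -0.056 to 0.12. In liver, omitting WT replicate 2 gave the 25 genes and omitting WT replicate 3 gave 11; 2 were called after WT replicate 1 or KO replicate 2 was omitted, and 0 after KO replicate 1. For iWAT minus eWAT there were 2353 to 4463 genes and 1 to 3 members, Bcat2 -0.26 to 0.58 and Slc43a1 -0.57 to 0.17; 3 members passed without eWAT WT replicate 1 or 3. For liver minus iWAT 3 to 5 members passed, 5 without eWAT WT replicate 2, and Slc7a8 ran from -0.052 to 0.19. Interactions had 0 to 14 genes (iWAT minus eWAT), 0 to 6 (liver minus eWAT) and 0 to 1 (liver minus iWAT). In percentage points, the Bcat1 share ran from -6.85 to 10.3, -1.31 to 1.99 and -0.54 to 0.91 for KO minus WT in eWAT, iWAT and liver and from -14.4 to -7.84 for liver minus eWAT, where it passed without eWAT WT replicate 3. The Slc7a5 share ran from -33.0 to 3.02 and -5.27 to 3.34 for KO minus WT in eWAT and liver and from -5.21 to 9.20 for iWAT minus eWAT. Pearson r ran from -0.75 to 0.95 (Slc7a5 with Slc3a2, eWAT), -0.15 to 0.75 (the same, liver) and -0.17 to 0.75 (Bcat2 with Slc25a44, liver).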
